A study of Mus musculus with 25 samples.

Results

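The SIX-family, EYA and DACH genes encode a set of developmental regulators that stays active in adult skeletal muscle. The 9 genes described here, *Six2*, *Six4*, *Six5*, *Eya1*, *Eya2*, *Eya3*, *Eya4*, *Dach1* and *Dach2*, were found by symbol among the 52636 genes of an RNA-seq count table from mouse *soleus*, a postural muscle rich in slow fibers. The set was chosen by family and with the genotype differences of these libraries already known, that of *Eya4* among them. Differences between genotypes are therefore given as a description with no p-value, for these genes and for the others named, and tests are given only for exercise, for the interaction of genotype with exercise, and for sex.

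The libraries came from 25 mice, 1 library a mouse, of 12 weeks of age on a C57BL/6 background. WT mice carried floxed *Dnmt3a* alleles without Cre. The mD3AKO mice carried the same floxed alleles with a Cre transgene under the promoter of muscle creatine kinase, a promoter that turns on late in muscle differentiation and also works in heart. *Dnmt3a* is the gene of a *de novo* DNA methyltransferase. In these whole-muscle libraries, its level in satellite cells and in non-muscle cells was not measured apart from that in fibers. This promoter is not known to work in those cells. For cultures grown from satellite cells of male mice, the paper reports lower *Dnmt3a* mRNA in mD3AKO only at the last time point of differentiation. Muscles were taken at rest, after time on a sham treadmill, from 5 WT and 7 mD3AKO mice, or 60 minutes after a single treadmill run from 7 WT and 6 mD3AKO mice. Both sexes were in every group, with 2 females and 3 males in WT at rest, 3 and 4 in mD3AKO at rest, 4 and 3 in exercised WT, and 3 and 3 in exercised mD3AKO.

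Between 22671457 and 37431801 reads were assigned to genes per library (median 32189360). Levels are given as CPM, counts scaled to library size, and 1 CPM stood for 32.2 reads at the median depth. *Dnmt3a* was at 93.4 to 131 CPM in WT libraries and at 34.5 to 53.9 CPM in mD3AKO libraries, so that every library followed its genotype label. The 8 markers of skeletal muscle fibers were detected, with a summed level between 97793 and 167798 CPM in every library. The library of mouse 15, a resting mD3AKO male, had the lowest depth, and 39.5% of its reads came from 3 genes of ribosomal RNA, a share that lay between 7.75% and 13.0% elsewhere. Values without it are given where they matter. In whole muscle, fewer cells of a type and less RNA per cell cannot be told apart.

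SIX-family proteins are homeodomain transcription factors that bind DNA at MEF3 sites, a motif found in the control regions of many muscle genes. EYA proteins do not bind DNA themselves. They are recruited by SIX-family factors as coactivators and also carry a phosphatase domain, while DACH proteins are corepressors related to the SKI family that act on the same complexes. In the embryo this network acts with PAX factors upstream of the myogenic regulatory factors, and in adult muscle SIX-family and EYA proteins are known for their part in the fast fiber program.

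Promoter windows of 300 bases, from 250 before to 50 after an annotated start, were matched in RefSeq (GRCm38.p6) for 7 of the 9 members in 10 windows, with *Eya1* and *Eya2* unmatched. Sequences are shown from 2 of them. The *Six4* window is shown because it alone held the MEF3 motif of SIX-family factors, and the *Eya4* window because *Eya4* was the member that differed most between genotypes of a DNA methyltransferase, whose substrate is the CpG. The motif searched was TCAGGTTTC on both strands, as a full match. It occurred in 1 of the 10 windows, and in 0.429% of all 32851 windows of that length. The match in *Six4*, on the strand opposite to the gene, lay 99 bases before the annotated start of one transcript, inside an exon of another, at chr12:73113325-73113354 (minus strand). Capitals mark the motif as read on the gene's strand.
Six4: tggcctggggGAAACCTGAtcggccagatc
The *Eya4* stretch at chr10:23350137-23350193 (minus strand) lies within the span of the gene and is the part of its window outside annotated exons. Capitals mark its 12 CpG sites.
Eya4: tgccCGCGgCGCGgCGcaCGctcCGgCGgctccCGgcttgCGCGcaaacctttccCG
The window of this start held 36 CpG sites, more than 93.8% of all windows, whose median was 7. A second *Eya4* window, which overlaps it, held 28. The window of *Six2* held 37, that of *Eya3* 25, and those of *Six4*, *Six5*, *Dach1* and *Dach2* 13 to 17. DNA methylation at these sites was not analysed here, and its part in the *Eya4* difference was not tested. The paper examined methylation of promoters and gene bodies in *soleus*. Its text does not name *Eya4* among the genes with both altered methylation and altered expression.

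Of the 9 members, 8 passed the filter on low counts and entered a fit over 16340 genes. Levels of different genes are compared as CPM per kilobase of exon. The length sums all annotated exons of a gene. Which exons were used in these muscles was not measured, so the order of genes is approximate. *Six4* was the most abundant at 5.82 ± 0.676 (SD, n = 25 libraries). *Eya3* followed at 3.47 ± 0.201, and both stood above the next gene in all 25 libraries. *Eya1* (2.01 ± 0.309) and *Dach2* (1.99 ± 0.696) could not be ranked, since *Eya1* was the higher of the pair in 14 of 25 libraries. *Eya4* (1.43 ± 0.281) lay below *Dach2* in 12 of 12 WT libraries but in 7 of 13 mD3AKO libraries. It lay above *Eya2* (1.08 ± 0.209) in 7 of 12 WT libraries and in 12 of 13 mD3AKO libraries, so the pair could not be ranked in WT. *Dach1* (0.792 ± 0.159) and *Six5* (0.780 ± 0.149) overlapped, with *Dach1* the higher in 4 of 12 WT and 10 of 13 mD3AKO libraries. *Six2* was near the limit of detection at 0.0796 ± 0.0549.

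**Figure D1:**
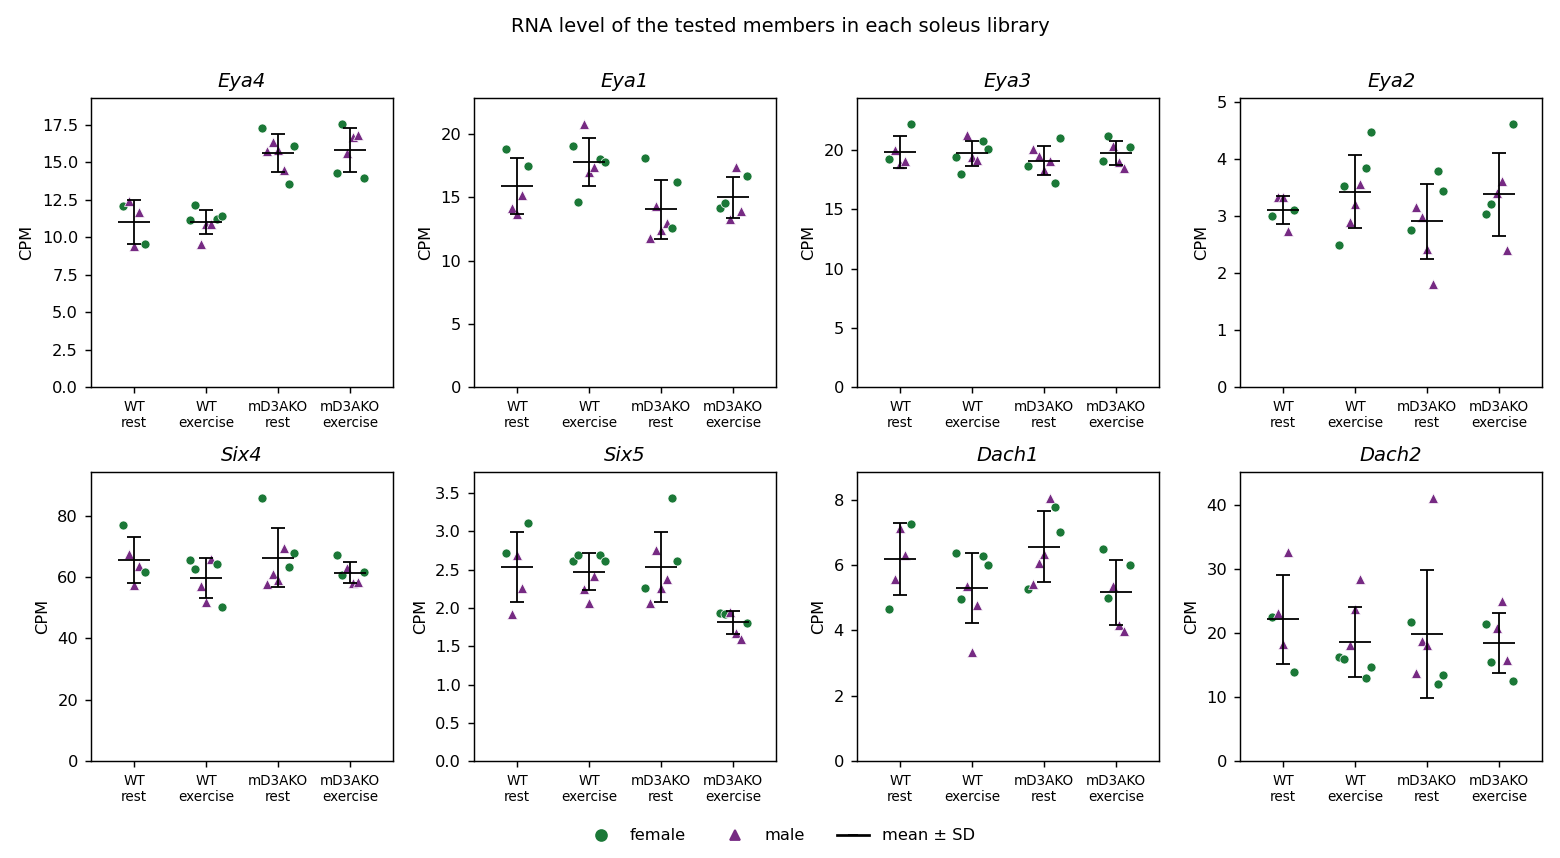
RNA level in CPM (y axis, from 0) of the 8 tested members in each of the 4 groups of genotype and exercise (x axis). Each point is a library, circles are females, triangles are males, and bars give the mean and SD. *Eya4* libraries of mD3AKO (13.5 to 17.5 CPM) all lie above those of WT (9.38 to 12.4 CPM), and *Six5* is low in exercised mD3AKO (1.60 to 1.95 CPM).

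Among the EYA coactivators, *Eya4* (chr10:23102963-23350786, minus strand, mm10) differed most between genotypes. WT mice had 12.1, 12.4, 9.38, 11.7 and 9.56 CPM at rest, and from 9.52 to 12.2 CPM (median 11.1, n = 7) after exercise. The mD3AKO mice had 13.5 to 17.3 CPM (median 15.8, n = 7) at rest and 14.0 to 17.5 CPM (median 16.2, n = 6) after exercise. No WT library reached the lowest mD3AKO library. The fitted difference was 0.51 ± 0.0561 (log2, SE), a 1.42-fold higher level in mD3AKO. It was 0.50 at rest, 0.52 after exercise, 0.47 in females and 0.57 in males. These values are part of what chose the gene and carry no test. For the same reason the count is a description, with 1 of 8 members called for genotype at an adjusted p under 0.05 against 0.269% of all genes tested, and 0 of 8 against 0.0367% when females were fitted alone. The non-overlap of WT with mD3AKO over all libraries was seen for 1 member and for 0.049% of all genes. Without mouse 15 the *Eya4* difference was 0.52. Markers of other cell types are described beside it in the same way. All 5 adipocyte markers had lower fitted levels in mD3AKO, with log2 differences of -0.80 (*Plin1*, SE 0.474) to -0.59 (*Cfd*, SE 0.381). Their summed level overlapped widely, at 46.4 to 535 CPM (mean 227) in WT and 32.7 to 504 CPM (mean 138) in mD3AKO. The medians of the other marker lists lay between -0.055 (smooth muscle) and 0.17 (tendon). Single markers lay further from 0, among them *Pax7* of satellite cells at 0.48 (SE 0.105) and *Cd68* of immune cells at 0.69 (SE 0.359). In their lists, 4 of 8 satellite cell markers and 5 of 5 tested immune markers had positive differences. Positive too were 6 of 6 tendon, 5 of 5 Schwann cell and 6 of 8 fibroblast markers. The count was 0 of 5 for blood, 2 of 6 for endothelium and 1 of 4 for smooth muscle. The part of these markers in the *Eya4* difference was not tested.

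For *Eya4*, the intervals for exercise and for sex included 0. Its log2 difference between exercised and resting mice was 0.0090 (95% interval -0.11 to 0.12, edgeR adjusted p = 0.965), and between males and females 0.0027 (interval -0.12 to 0.12, adjusted p = 0.988). The genotype difference itself varied by 0.016 between rest and exercise (interval -0.21 to 0.25, adjusted p = 1.00) and by 0.097 between the sexes (interval -0.14 to 0.34, adjusted p = 1.00). None of these passed the test.

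*Eya1* (chr1:14168954-14310235, minus strand), the EYA gene best known for fast fiber genes, had the opposite direction between genotypes. WT libraries had 18.8, 14.2, 13.7, 15.2 and 17.5 CPM at rest and 14.6 to 20.8 CPM (median 17.8) after exercise. In mD3AKO the range was 11.8 to 18.1 CPM (median 12.9) at rest and 13.3 to 17.4 CPM (median 14.4) after exercise. The groups overlapped throughout, and the fitted difference was -0.21 ± 0.0732 on the log2 scale, again described without a test. *Eya3* was the steadiest member, with 17.2 to 22.2 CPM over all 25 libraries and a genotype difference of -0.027 ± 0.0390. *Eya2* ranged from 1.82 to 4.61 CPM, with its lowest value in mouse 15, and its genotype difference was -0.048 ± 0.11.

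The composition of EYA RNA is given by genotype as a description, which includes the values of *Eya4* that chose it. Ratios and shares between genes rest on the same annotated exon lengths. The level of *Eya4* relative to *Eya1*, per length, was 0.548 ± 0.0975 in WT (SD, n = 12, range 0.380 to 0.728) and 0.911 ± 0.118 in mD3AKO (n = 13, range 0.695 to 1.11). The ranges overlapped through a WT male at rest, mouse 11, and an exercised mD3AKO female, mouse 23. *Eya4* made up 14.7 ± 1.64% of summed EYA level in WT and 20.8 ± 1.67% in mD3AKO. The share of *Eya1* was 27.3 ± 2.54% and 23.1 ± 2.15%. *Eya3*, the largest part, was at 44.0 ± 1.87% and 42.9 ± 2.28%. Summed EYA level was 7.97 ± 0.419 CPM per kilobase in WT and 8.02 ± 0.544 in mD3AKO.

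**Figure D2:**
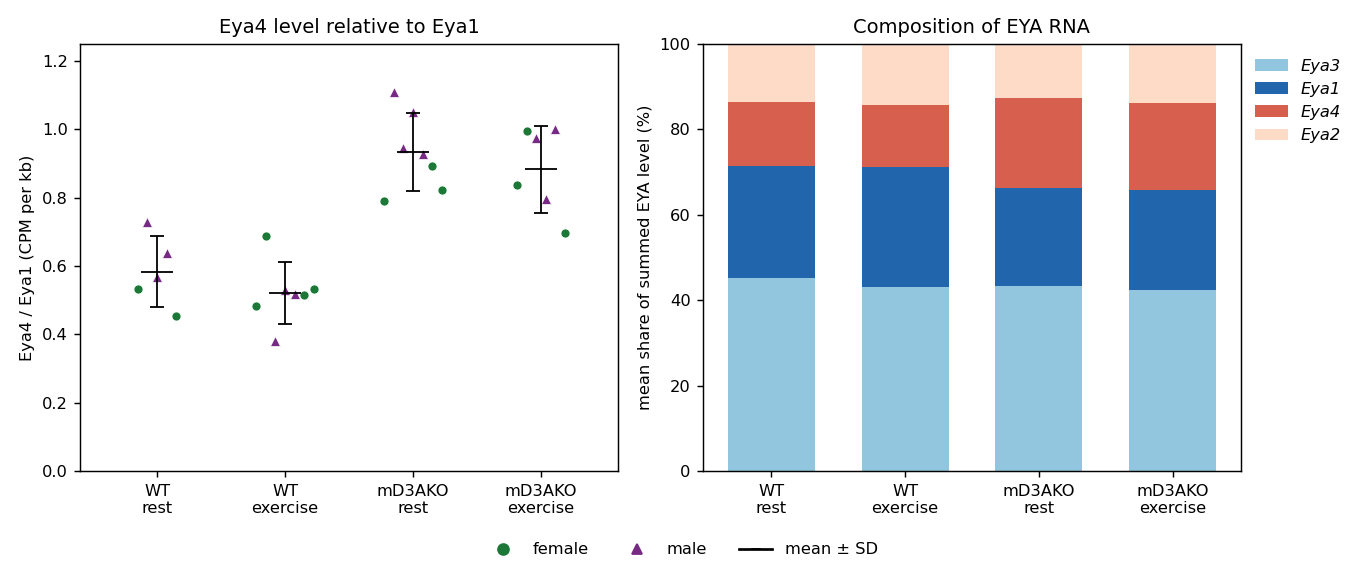
Left, the ratio of *Eya4* to *Eya1* in CPM per kilobase (y axis) for each library in the 4 groups (x axis), circles for females and triangles for males, with mean and SD. Right, the mean share of each EYA gene in summed EYA level (y axis, percent) in the same groups. The ratio is 0.380 to 0.728 in WT and 0.695 to 1.11 in mD3AKO.

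*Six4* (chr12:73099609-73113456, minus strand), a regulator of myogenesis, had overlapping values in all 4 groups. WT libraries had 77.1, 67.6, 57.3, 63.8 and 61.6 CPM at rest and 50.1 to 65.9 CPM (median 62.8) after exercise. The mD3AKO libraries had 57.9 to 85.7 CPM (median 63.4) at rest and 58.2 to 67.2 CPM (median 61.2) after exercise. The highest value, 85.7 CPM, was that of mouse 2, a resting mD3AKO female, and the next in its group was 69.7 CPM. The genotype difference was 0.031 ± 0.0625 on the log2 scale.

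*Six5* (chr7:19094594-19098549, plus strand) lies beside *Dmpk*, the myotonic dystrophy kinase gene. It was a low-count member, with 34 to 130 reads per library. WT mice had 2.71, 1.92, 2.69, 2.25 and 3.11 CPM at rest and 2.06 to 2.69 CPM (median 2.61) after exercise. The mD3AKO mice had 2.07 to 3.43 CPM (median 2.38) at rest and 1.60 to 1.95 CPM (median 1.87) after exercise. All 6 exercised mD3AKO libraries were thus below all 7 resting mD3AKO libraries and below all 7 exercised WT libraries. The first of these non-overlaps was found for 1 of 8 members (2.24% of all genes), and the second for 2 members, *Eya4* and *Six5* (0.251% of all genes). The second is between genotypes, whose differences were known when the set was chosen, and is a description only. The fitted genotype difference of *Six5* was -0.22 ± 0.0888 on the log2 scale, described without a test. It was 0.0029 at rest and -0.45 after exercise.

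*Six2* (chr17:85684277-85688274, minus strand), which is best known from kidney development, gave 0 to 13 reads per library and did not pass the filter. It was at 0.180 ± 0.127 CPM at rest (SD, n = 12) and 0.158 ± 0.11 CPM after exercise (n = 13, 2-sided permutation test, p = 0.64). No difference of *Six2* with exercise was detected, and the size that this depth could show was not measured.

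The DACH corepressors had overlapping values in WT and mD3AKO. *Dach1* (chr14:97786853-98169765, minus strand) was at 4.65, 5.57, 7.14, 6.30 and 7.26 CPM in resting WT and at 3.35 to 6.36 CPM (median 5.35) in exercised WT. In mD3AKO it was at 5.28 to 8.04 CPM (median 6.33) at rest and 3.97 to 6.49 CPM (median 5.17) after exercise. *Dach2* (chrX:113297510-113836386, plus strand), a repressor of myogenin in innervated muscle, spanned 12.1 to 41.1 CPM. Its 41.1 CPM came from mouse 15, whose ribosomal RNA share is given above, and the next value in that group was 21.8 CPM. Genotype differences on the log2 scale were 0.022 ± 0.107 for *Dach1* and -0.091 ± 0.179 for *Dach2*. Without mouse 15 the latter was -0.23.

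Whether the members respond to acute exercise was asked in both genotypes together. None of the 8 tested members passed an adjusted p under 0.05, against 10.4% of all genes, and DESeq2 also called 0 of 8, against 11.8%. At an unadjusted p under 0.05 there were 2 members, *Six5* and *Dach1*, against 21.3% of all genes. *Dach1* had a log2 difference of -0.28 (SE 0.107, edgeR adjusted p = 0.0984) and *Six5* one of -0.26 (SE 0.0887, adjusted p = 0.0583). With sex as a term in the fit both passed, at adjusted p = 0.0431 for *Dach1* and 0.0132 for *Six5*. With a term for the 3 runs of mouse numbers (1 to 6, 7 to 19 and 20 to 25) *Six5* passed (adjusted p = 0.0176) and *Dach1* did not (0.0577). *Six5* also passed without mouse 2, 7, 11 or 14, at adjusted p between 0.0222 and 0.0490. The other members had adjusted p of 0.268 (*Six4*, -0.12), 0.338 (*Eya1*, 0.13), 0.407 (*Eya2*, 0.17), 0.686 (*Dach2*, -0.17) and 0.888 (*Eya3*, 0.017). The difference of *Dach2* was -0.035 without mouse 15 (adjusted p = 0.936). The median over the 8 members was -0.056, against -0.00088 over all genes, with 4 members on either side of 0.

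*Six5* showed its exercise difference in mD3AKO mice. There it fell by 0.49 on the log2 scale (SE 0.124, edgeR adjusted p = 0.0161), so that its level fell by 28.7%. It was the 1 of 8 members called in mD3AKO, against 6.02% of all genes. In WT, where 0 of 8 members and 3.59% of all genes were called (0 members and 12.3% of genes at an unadjusted p under 0.05), its difference was -0.039 (SE 0.127, adjusted p = 0.981). The test of the difference between the genotypes gave -0.45 (SE 0.178, interval -0.82 to -0.083), with an unadjusted p of 0.0184 and an adjusted p of 1.00 in edgeR, so a dependence of the response on genotype was not shown. No member and no gene was called for the interaction (0%) by edgeR or DESeq2, and *Six5* was the 1 member at an unadjusted p under 0.05, against 2.47% of all genes. Within mD3AKO the exercised libraries lay below the resting ones in each sex, at 1.81 to 1.93 against 2.26 to 3.43 CPM in females and 1.60 to 1.95 against 2.07 to 2.76 CPM in males. Fitted in females alone the difference was -0.55 (adjusted p = 0.243) and in males alone -0.45 (adjusted p = 0.196), so the call was lost at a similar size. *Dmpk*, the neighbor of *Six5*, had an exercise difference of -0.015 (adjusted p = 0.939).

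**Figure D3:**
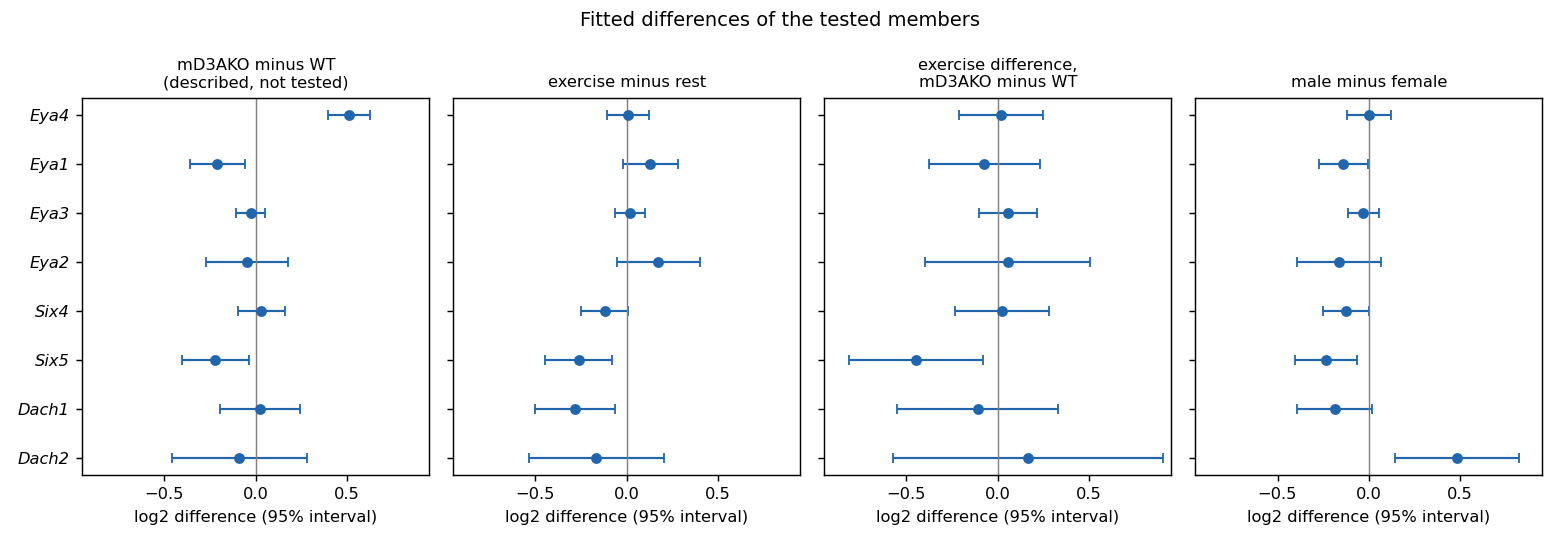
Fitted log2 differences (x axes) with 95% intervals for the 8 tested members (y axis) between genotypes, between exercise and rest, for the interaction, and between males and females. The genotype panel is a description. For exercise, the points of *Six5* (-0.26) and *Dach1* (-0.28) lie furthest below 0, and for sex, *Dach2* (0.48) lies furthest above it.

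Markers of other cell types moved with exercise beside these members. Of 8 satellite cell markers, 3 fell, *Pax7*, *Myf5* and *Fgfr4*, and their summed level was 58.3 to 84.3 CPM at rest and 54.4 to 80.1 CPM after exercise. Of 6 endothelial markers, 4 fell, with *Kdr*, a receptor for VEGF, at -0.58 (SE 0.0720, edgeR adjusted p = 2.1e-06), and the summed level was 372 to 503 CPM at rest and 316 to 417 CPM after exercise. None of the markers in these lists was at 0 in all libraries. Of 4 smooth muscle markers 1, *Cnn1*, rose, and no fibroblast (of 8), tendon (of 6), Schwann cell (of 5), adipocyte (of 5), immune (of 5) or blood (of 5) marker tested passed the edgeR test, with 2 of the fibroblast markers and 0 of the others at an unadjusted p under 0.05. The median log2 difference of the 8 fibroblast markers was -0.33, with 1 of 8 above 0. The part of all these markers in the values of *Six5* and *Dach1* was not tested. Neither the 15 fast nor the 10 slow fiber genes gave a call for exercise, with 0 and 1 at an unadjusted p under 0.05. Between the sexes, 2 satellite cell markers, *Pax7* and *Chodl*, and 1 tendon marker, *Mkx*, were lower in males by the edgeR test, and 3 of 8 satellite cell and 5 of 6 tendon markers were at an unadjusted p under 0.05. None of the 5 Schwann cell markers passed, but all 5 were at an unadjusted p under 0.05, with log2 differences of -0.92 (*Prx*) to -0.69 (*Pmp22*), each larger in size than that of any member. Their summed level was 66.5 to 495 CPM in females and 61.8 to 238 CPM in males. All 5 adipocyte markers had lower fitted levels in males (log2 differences of -0.80 to -0.47), with 0 at an unadjusted p under 0.05. All 5 blood markers had higher fitted levels in males (log2 differences of 0.44 to 0.57). None passed, and 2, *Hba-a1* and *Alas2*, were at an unadjusted p under 0.05, as was 1 fibroblast marker, *Pdgfra*, at -0.27. The summed level of the blood markers was 72.9 to 283 CPM in females and 125 to 464 CPM in males. The part of these markers in the sex differences of the members was not tested.

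The sexes were compared over the same 4 groups. None of the 8 members was called by edgeR, against 8.65% of all genes. DESeq2 called 1, *Dach2*, against 10.7%, and 3 members were at an unadjusted p under 0.05, against 23.9%. *Dach2* was at 12.1 to 22.6 CPM (median 15.1) in 12 females and at 13.8 to 41.1 CPM (median 20.8) in 13 males. Females with mouse numbers 1 to 6 were at 15.5 to 22.6 CPM, all above those with numbers 20 to 25, at 12.1 to 14.7 CPM. All males had numbers 7 to 19, so sex and these runs of numbers cannot be told apart. This holds for every gene, members and cell type markers alike. The ranges of the sexes overlapped, and the fitted difference was 0.48 (SE 0.164, edgeR adjusted p = 0.0715), a 1.40-fold higher level in males. Without mouse 15, the male with the highest value, it was 0.38 (adjusted p = 0.0805), and without mouse 2 or mouse 7 it passed, at adjusted p = 0.0364 and 0.0327. *Six5* had a difference of -0.23 (SE 0.0814, adjusted p = 0.0764), with 1.60 to 2.76 CPM in males and 1.81 to 3.43 CPM in females, and it passed without mouse 2 or mouse 13 (adjusted p = 0.0393 and 0.0488). For *Eya1* the difference was -0.14 (SE 0.0649, adjusted p = 0.188).

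Fiber type genes differed between the sexes in the same libraries, where sex and the runs of mouse numbers cannot be told apart. Of 15 fast fiber genes 8 were higher in males, among them *Myl1*, a fast myosin light chain, by 0.58 (adjusted p = 2.6e-04), and 0 were lower. Of 10 slow fiber genes 8 were lower in males, among them *Myh7*, the slow myosin heavy chain, at -0.51 (adjusted p = 1.7e-04), and 0 were higher. The summed level of the fast list was 32691 to 50790 CPM in females and 42019 to 62927 CPM in males, and that of the slow list 33733 to 53403 and 28462 to 36190 CPM. Of the 8 skeletal muscle fiber markers, *Ckm*, *Myh2* and *Tnnt3* were higher and *Myh7* and *Tnnt1* lower in males, and all but *Ckm* are also in the fast or slow list. The part of these genes in the sex values of *Dach2*, *Six5* and *Eya1* was not tested.

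The response to exercise was also fitted within each sex, and *Dach1* and *Eya1* are given because their fitted responses differed most between the sexes, a choice made after their values were seen. *Dach1* in males was at 5.41 to 8.04 CPM (median 6.30, n = 7) at rest and at 3.35 to 5.36 CPM (median 4.46, n = 6) after exercise, without overlap, although the nearest libraries, at 5.41 and 5.36 CPM, almost met. It fell by 0.50 (SE 0.138, edgeR adjusted p = 0.0276) and was the 1 member called in males, against 6.87% of all genes, and the 1 without overlap, against 3.59%. The call was lost without mouse 13, 16, 17 or 19, at adjusted p between 0.0637 and 0.0807. Females had 4.65 to 7.76 CPM at rest and 4.97 to 6.49 CPM after exercise, with a difference of -0.11 (SE 0.144, adjusted p = 0.910), and 0 members were called in them, against 3.7% of all genes (2 members, *Six4* and *Six5*, and 12.2% of genes at an unadjusted p under 0.05). The test between the sexes gave -0.40 (SE 0.200, adjusted p = 1.00), so a difference in response between males and females was not shown for *Dach1*.

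*Eya1* in males was at 11.8 to 15.2 CPM (median 13.7) at rest and 13.3 to 20.8 CPM (median 17.2) after exercise. The difference of 0.28 (SE 0.0894, edgeR adjusted p = 0.0614) missed the threshold, and passed without mouse 2, 8 or 21 (adjusted p between 0.0375 and 0.0489). Females had 12.6 to 18.8 CPM at rest and 14.1 to 19.1 CPM after exercise (-0.054, SE 0.0942, adjusted p = 0.942). The test between the sexes gave 0.34 (SE 0.130, unadjusted p = 0.0169, adjusted p = 1.00). None of the members was called by edgeR for a sex difference in the exercise response, against 0.0551% of all genes, and *Eya1* was the 1 member at an unadjusted p under 0.05, against 3.34%. None was called for a sex difference in the genotype difference either (0% of all genes), with 0 members and 1.71% of genes at an unadjusted p under 0.05.

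**Figure D4:**
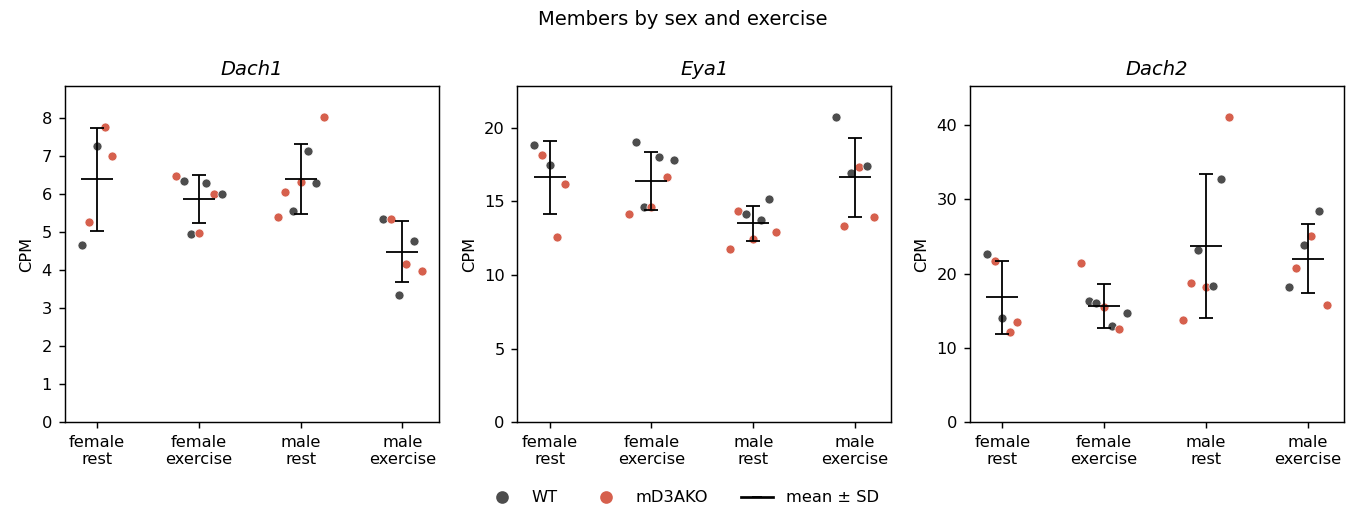
CPM (y axis, from 0) of *Dach1*, *Eya1* and *Dach2* by sex and exercise (x axis). Points are libraries, grey for WT and red for mD3AKO, with mean and SD. *Dach1* in males is at 5.41 to 8.04 CPM at rest and at 3.35 to 5.36 CPM after exercise, while in females the ranges overlap.

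Around their group means, *Eya4* and *Dach1* varied in opposite directions from mouse to mouse, in part along with the runs of mouse numbers. After subtracting the mean of each of the 8 groups of sex, genotype and exercise from log2 CPM, Pearson's r over 25 libraries was -0.80 and Spearman's rho was -0.80. It was -0.91 in the 12 females, -0.69 in the 13 males, -0.79 in WT and -0.81 in mD3AKO. In the group of 2 resting WT females, mouse 1 and mouse 20, the values mirror each other by construction. Without the 2 libraries farthest from the median of *Eya4*, mouse 9 and mouse 13, r was -0.80, and without mouse 15 it was -0.79. In the 6 females numbered 20 to 25, *Dach1* was above its group mean in 6 and *Eya4* below it in 5. With the runs of numbers subtracted as well, a check added after the values were seen, r was -0.74 over all libraries (rho -0.62) and -0.84 in females (rho -0.63). Males lie in a single run, and their r stayed at -0.69 (rho -0.55). Of the 16339 other genes compared with *Eya4* in this way, *Dach1* had the lowest r. Of the 28 pairs of members, this was the furthest from 0, and 24 pairs were between -0.5 and 0.5. *Six4* with *Dach2* had r = 0.64 and *Six5* with *Dach1* 0.62. *Six5* with *Eya4* had r = -0.59, but rho was -0.43, and r was -0.45 without the 2 libraries farthest from the median of *Six5*, mouse 19 and mouse 21, both inside that band. Without mouse 15, *Eya4* with *Dach2* went from 0.30 to 0.56 and so left the band. These are descriptions of values that share libraries and their depth, singled out after they were seen, and carry no p-value.

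**Figure D5:**
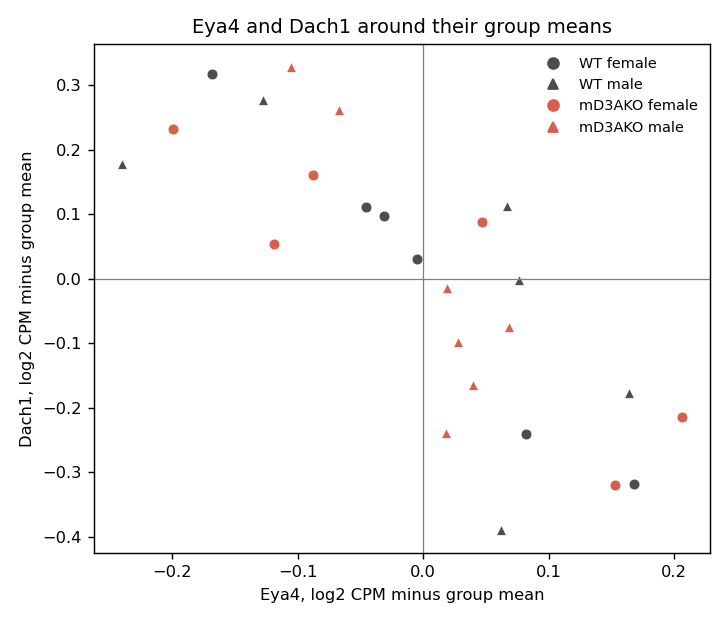
*Dach1* (y axis) against *Eya4* (x axis), both in log2 CPM minus the mean of the library's group of sex, genotype and exercise, for 25 libraries. Circles are females, triangles are males, grey is WT and red is mD3AKO. Libraries high in *Eya4* are low in *Dach1* in both genotypes (r = -0.80 over all libraries).

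By the same measure, the genes outside the set most like each member were as follows. The 2 named for each member had the highest r of all tested genes with a symbol. The choice itself raises r, and no p-value is given. *Dach2* went with *Ubxn2a* (r = 0.93) and *Pnpla8* (0.92). *Eya2* went with *Chst12* and *Clip3* (both 0.90). *Six4* went with *Kif1b* and *Bbs5* (both 0.88). *Eya1* was nearest to *Pir* (0.87) and *Ern1* (0.84), *Six5* to *F420014N23Rik* (0.86) and *Flrt1* (0.79), and *Dach1* to *4921511C10Rik* (0.82) and *Dixdc1* (0.80). The lowest values were those of *Eya4*, with *Saysd1* (0.79) and *Tex10* (0.74), and of *Eya3*, with *H19* (0.74) and *Nup214* (0.71). Without mouse 15, a check added after the values were seen, r of these pairs was between 0.72 and 0.91. The same 2 genes then came first for *Six4*, *Six5*, *Eya1*, *Eya2* (*Clip3* 0.90, *Chst12* 0.88) and *Dach2* (both 0.91). They did not for the other members, where *Col19a1* (0.75) came first for *Eya3*, *Golga5* (0.79) for *Eya4*, and *Hapln3* and *Pla2g2d* (both 0.85) for *Dach1*.

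Other genes of the network were read from lists. Of the 6 PAX genes only *Pax7*, the satellite cell factor, had enough reads. It fell by 0.45 with exercise (SE 0.105, edgeR adjusted p = 0.00411) and was lower in males by 0.31 (SE 0.0821, adjusted p = 0.0212). Its difference between genotypes was 0.48 ± 0.105 (log2, SE), a description. Of 15 cofactors of SIX-family, EYA and DACH proteins found in the table, 2 rose and 1 fell with exercise. *Tle3*, a Groucho corepressor, rose by 0.72 (SE 0.103, adjusted p = 1.7e-05), and *Skil*, a SKI family corepressor akin to the DACH proteins, by 0.61 (SE 0.0910, adjusted p = 2.7e-05). *Skida1*, which shares the SKI and DACH domain, fell by 0.61 (SE 0.147, adjusted p = 0.00578). In males, *Sobp*, a SIX-family cofactor, was higher by 0.28 (adjusted p = 0.0285) and *Hdac3* by 0.12 (adjusted p = 0.0403).

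Of the 4 myogenic regulatory factors, *Myf5* fell with exercise by 0.46 (SE 0.0902, edgeR adjusted p = 8.4e-04). *Myog*, the gene of myogenin, had a difference of 0.61 with exercise as the average of both genotypes (SE 0.215, adjusted p = 0.0726), which did not pass. Its interaction was 0.88 (SE 0.425, edgeR unadjusted p = 0.0480) and did not pass after adjustment. The genotype difference of *Myog* was 0.96 ± 0.216, described without a test. The neighbors *Dmpk* and *Mnat1*, next to *Six5* and *Six4*, gave no call for exercise, interaction or sex, with 1 of the 2, *Dmpk*, at an unadjusted p under 0.05, for sex.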

How the data were processed

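RNA was extracted from a single *soleus* muscle per mouse, depleted of ribosomal RNA and sequenced as stranded paired-end libraries. The authors deposited raw counts of reads per gene for 25 libraries, together with gene coordinates and the summed exon length of each gene. The submitters' processing notes name FastQC 0.11.5, STAR 2.5.3a, featureCounts 1.5.3 and mm10, and the methods name GENCODE M15 annotation. The strand setting of the counting is not given in the sources used here, so reads of genes nested in *Eya1*, *Eya2*, *Eya4*, *Dach1* and *Dach2* (mostly small RNAs, pseudogenes and 1 lincRNA in M21) may be counted with them or left out. Symbols came from GENCODE M21 for 52403 of 52636 gene IDs, and 233 had none.

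Genes were kept with filterByExpr over the 4 groups (minimum count 10, minimum total 15), which left 16340. Counts were fitted with edgeR 4.0.16 in R 4.3.3 (TMM scaling, quasi-likelihood F test) with 1 mean per group of genotype and exercise, or of sex, genotype and exercise for sex. Adjusted p-values are Benjamini-Hochberg values over all genes tested, called under 0.05. SE is the log2 difference divided by the root of F, and intervals are 95%. CPM used TMM-scaled library sizes. The permutation test for *Six2* used 100000 resamples. The scripts were tested on simulated data.

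The members, lists and named genes were chosen with earlier results of these data known. Named are every member, genes of the lists that passed or are known partners, and the 2 genes with the highest residual correlation to each member (log2 CPM, prior count 2). Of 16 cofactors, *Tle5* found no match. Alternatives were DESeq2 1.42.0, its size factors, no filter, a term for sex, a term for runs of mouse numbers, each sex alone, and leaving out each mouse. All 67 pairs of libraries within groups differed beyond counting noise. Read numbers were low for *Six2* (0 to 13 per library), *Six5* (34 to 130) and *Eya2* (26 to 149), and their part in precision was not tested. Bisulfite data were not analysed here. One of the lists and 1 gene of another are not reported here.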

Additional observations from a re-analysis of the deposited data

Results flagged for a closer look

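In 36 groups of a member's CPM, 2 had a highest value that stood apart from the rest by Dixon's criterion, which flags about 1 group in 20 by chance. *Six4* was at 85.7 CPM in mouse 2, a resting mD3AKO female, and the next of the 7 libraries was at 69.7 CPM. *Dach2* was at 41.1 CPM in mouse 15, a resting mD3AKO male, and the next was at 21.8 CPM. Mouse 15 is also the library with 39.5% of reads on ribosomal RNA genes.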

How the results depend on the processing

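No paired analysis was possible because the mouse numbers, 1 to 25, are each used once and no number is shared between groups. Members called for exercise numbered 0, and became 2 with a term for sex (*Six5* and *Dach1*, beside 11.9% of all genes), 1 with a term for 3 runs of mouse numbers (*Six5*, beside 12.5%) and 1 in males alone (*Dach1*, beside 5.84%). Members called for sex numbered 0, and became 1 (*Dach2*) with no filter on low counts (3.3% of all genes) and with DESeq2 (10.7%). For genotype, a description since these values chose the set, 1 member was called, and 0 in females alone (0.0367% of all genes). Over all settings the *Eya4* genotype difference stayed between 0.47 and 0.56. Leaving out 1 mouse at a time gave 0 to 1 called members for exercise (9.42% to 11.1% of all genes). For sex it gave 0 to 2 (5.43% to 10.8%). The cause was not tested. Directions turned for differences that no setting called. For genotype, the alternatives spanned -0.14 to 0.064 for *Eya2*, -0.023 to 0.071 for *Dach1*, -0.23 to 0.00092 for *Dach2* and -0.0049 to 0.064 for *Six4*. With the term for mouse numbers, *Eya4* was at -0.0015 for exercise and -0.011 for the interaction. In females alone, exercise was -0.060 for *Eya1* and -0.0022 for *Eya3*, and the interaction 0.020 for *Eya1*, -0.11 for *Eya2* and -0.12 for *Eya4*. In males alone, *Eya4* was at -0.022 for exercise, and the interaction at -0.044 for *Eya3* and -0.057 for *Dach2*. Leaving out 1 mouse, the interaction spanned -0.017 to 0.44 for *Dach2*, -0.058 to 0.13 for *Eya2*, -0.030 to 0.069 for *Eya4* and -0.041 to 0.097 for *Six4*. Exercise spanned -0.017 to 0.032 for *Eya4*, -0.12 to 0.046 for *Six5* in WT, and in females -0.25 to 0.072 for *Dach1* and -0.12 to 0.0051 for *Eya1*. Sex spanned -0.037 to 0.047 for *Eya4*. The term for mouse numbers could not be fitted for sex, since the runs hold 1 sex each. *Six2*, *Six5* and *Eya2* had low read numbers, and the part of these in the changes was not tested.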
